A study of Homo sapiens with 2 samples.

Results

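The genes of the proteasome, the protease that breaks down ubiquitin-tagged proteins, were examined in SU-DHL-1 cells after knockdown of HLX. Members were all genes with a symbol of the PSMA, PSMB, PSMC, PSMD, PSME, PSMF or PSMG series that had a probe set of their own in the annotation of the array, and 42 of the 19775 genes read in this way belonged to them. SU-DHL-1 is an established line of cells from anaplastic large cell lymphoma (ALCL), in which NPM1 is fused to ALK. Cells had been electroporated with an siRNA (siHLX) against HLX, an NKL homeobox gene, or with a negative control siRNA (siCTR) and were harvested less than a day later. Each treatment had 1 array (Affymetrix HG-U133 Plus 2.0) and no replicate, so no test between the treatments could be made and no p-value is given. The sequence of the HLX siRNA was not given in the sources used here. All results come from 1 cell line and a transient knockdown.

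The proteasome consists of a barrel-shaped core particle and a regulatory particle that caps it. The core is built from rings of alpha subunits, which form the gate, and rings of beta subunits, some of which cut proteins. The regulatory particle has a base, with a ring of ATPases that unfold the substrate, and a lid, which removes the ubiquitin chain. In lymphoid cells and after interferon the cutting subunits are replaced by the immunoproteasome forms PSMB8, PSMB9 and PSMB10, which favour peptides for presentation on HLA class I, and an alternative cap made of PSME1 and PSME2 can be attached. Since subunits are needed in fixed proportions, transcripts of the family are commonly described as produced together.

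Values are log2 intensities after RMA, and a difference is always the siHLX value minus the siCTR value, so that a positive number means a higher reading on the siHLX array. Where a gene had several probe sets, the brightest stood for it. A gene entered counts if its mean over both arrays reached 4.865, the median over all probe sets. HLX, the target of the siRNA, read 8.15 with siCTR and 7.70 with siHLX on its only probe set (difference -0.45). The differences of all genes with a level between 6 and 10 had an SD of 0.22. Of the markers read for ALCL and T cells, TNFRSF8, ALK, NPM1, IL2RA, PRF1 and GZMB lay between 9.92 and 13.60 with siCTR. PTPRC read 9.34 (difference 0.37). CD4 was dim at 5.96 (difference -0.33), and CD2 lay below the threshold. Of 11 markers read for other cell types 6 lay below it, among them all 3 myeloid ones, and 5 above it. The latter were the B-cell genes CD79A (6.57 with siCTR) and PAX5 (5.37), the epithelial keratins KRT8 (5.23) and KRT18 (7.20), and the collagen gene COL1A1 (7.62), with differences from -0.33 to 0.24. Their part in the results was not tested. In a bulk sample, fewer cells with a transcript and less transcript per cell cannot be told apart. When the arrays were instead set to the same level of the poly-A spike-in transcripts (poly-A scaling), the median of all genes moved from -0.01 to 0.28, and every proteasome gene above the threshold then had a positive difference. All directions below are therefore relative to the bulk of genes.

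Of the 42 members, 41 lay above the threshold and 39 also above 9.08, the 90th percentile of all probe sets. The exception below the threshold was PSMA8, the testis form of an alpha subunit, at 2.84 with siCTR and 2.96 with siHLX. PSMA6 and PSME2 had only probe sets shared with a neighbouring gene and were not read. PSMB11, PSMC5, PSMD7 and PSMD13 were not analysed here.

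Stretches of 120 bases just before the start of transcription are shown for the groups compared most closely below. They are those of all immunoproteasome members and ATPase genes read, with or without a motif, and of PSMD3 and PSMD14, the lid genes with the lowest and the highest difference. PSMB8 has more than 1 start in the table, and the first listed was taken. The sequences are from RefSeq (GRCh38.p14), written 5′ to 3′ on the strand of the gene. Capitals mark matches to any of the motifs named in the next paragraph that lie wholly inside the stretch.
PSMB8, chr6:32844680-32844799, minus strand: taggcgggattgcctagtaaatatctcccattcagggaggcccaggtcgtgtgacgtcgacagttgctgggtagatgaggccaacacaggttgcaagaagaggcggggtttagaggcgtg
PSMB9, chr6:32854072-32854191, plus strand: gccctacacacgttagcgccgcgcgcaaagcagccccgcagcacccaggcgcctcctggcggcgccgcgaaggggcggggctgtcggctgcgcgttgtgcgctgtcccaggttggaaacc
PSMB10, chr16:67936851-67936970, minus strand: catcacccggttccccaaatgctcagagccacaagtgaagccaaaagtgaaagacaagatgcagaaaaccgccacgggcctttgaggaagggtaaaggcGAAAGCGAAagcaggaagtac
PSME1, chr14:24136074-24136193, plus strand: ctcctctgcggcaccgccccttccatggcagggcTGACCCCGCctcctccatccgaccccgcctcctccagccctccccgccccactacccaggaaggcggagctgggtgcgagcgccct
PSMC1, chr14:90256433-90256552, plus strand: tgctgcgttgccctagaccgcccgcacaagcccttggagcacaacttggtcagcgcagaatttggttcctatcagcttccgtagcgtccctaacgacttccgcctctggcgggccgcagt
PSMC2, chr7:103347523-103347642, plus strand: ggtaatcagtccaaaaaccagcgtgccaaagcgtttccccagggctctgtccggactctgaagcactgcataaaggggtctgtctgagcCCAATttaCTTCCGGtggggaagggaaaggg
PSMC3, chr11:47426440-47426559, minus strand: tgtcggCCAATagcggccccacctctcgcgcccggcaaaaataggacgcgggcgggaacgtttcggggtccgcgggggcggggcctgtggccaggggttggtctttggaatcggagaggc
PSMC4, chr19:39971045-39971164, plus strand: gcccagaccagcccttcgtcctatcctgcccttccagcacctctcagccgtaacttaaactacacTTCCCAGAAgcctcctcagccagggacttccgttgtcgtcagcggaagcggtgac
PSMC6, chr14:52707080-52707199, plus strand: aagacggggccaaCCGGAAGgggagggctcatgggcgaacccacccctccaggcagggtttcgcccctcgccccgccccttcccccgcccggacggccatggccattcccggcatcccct
PSMD3, chr17:39980687-39980806, plus strand: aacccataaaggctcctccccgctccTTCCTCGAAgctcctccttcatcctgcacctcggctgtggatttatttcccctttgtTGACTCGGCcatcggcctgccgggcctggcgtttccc
PSMD14, chr2:161308305-161308424, plus strand: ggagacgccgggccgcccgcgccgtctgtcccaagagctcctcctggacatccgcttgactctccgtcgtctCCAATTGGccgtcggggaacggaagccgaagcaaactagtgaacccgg

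RefSeq windows from 250 bases before to 50 bases after the start were found for 36 of the 42 members, and motifs were searched on both strands. The antioxidant response element, the site of the factors NFE2L1 and NFE2L2, was searched as TGACNNNGC and was held by 12 of the 36 windows, where 13.6% of all 27305 windows hold it. In PSMD3 it lies 37 bases before the start. The core of ETS factor sites, CCGGAAG, was held by 11 windows, and by 10.7% of all windows. The ATPase genes PSMC1, PSMC2 and PSMC6 and the lid genes PSMD6, PSMD8, PSMD12 and PSMD14 were among the 11, so both groups hold it. The matches of PSMC1 and PSMD14 reach past the start and so carry no capitals in the stretches. CCAAT was held by 16 windows and by 35.7% of all. The interferon-type element GAAANNGAA was held by 6 windows and by 8.29% of all, among them the immunoproteasome members PSMB10, with the match 21 bases before the start, and PSME1, with the match past the start, and the ATPase gene PSMC2. The STAT-type element TTCNNNGAA was held by 5 windows and by 7.88% of all, among them PSMC4 and PSMD3. The homeodomain letters TAATTA were held by 0 of the 36 windows and by 4.98% of all. These are matches of letters, they are not sites shown to be bound, and the motifs were chosen with the array values known. In the stretches shown, CCAAT matches on opposite strands overlap in PSMD14, and no other matches overlap.

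Proteasome transcripts were bright on both arrays and nearly equal between them. The 41 members ranged from 8.76 to 12.60 with siCTR and from 8.51 to 12.56 with siHLX, and the median was 11.31 on both. Their differences had a median of -0.01, the same as that of all 12135 genes above the threshold, with 17 members higher, 21 lower and 3 at exactly 0. Of the 12135 genes, 47.4% were higher and 50.2% lower. At a limit of 1.2-fold, 0 members were higher and 0 lower, whereas 12% of all genes passed it upwards and 12.6% downwards. Bright probe sets vary less than dim ones on these arrays, so the shares among genes above the 90th percentile of level are the closer background. There, 2.53% of 3518 genes passed the limit upwards and 2.81% downwards, against 0 and 0 of the 39 members in that range. Few bright genes of any kind passed it, and the members were no exception.

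A limit of 1.1-fold was passed by 3 members upwards and by 4 downwards. Of all genes above the threshold, 24.6% passed it upwards and 25.7% downwards. Among genes above the 90th percentile the shares were 11.8% and 15%, and 2 of the 39 members there were higher and 3 lower. The SD of the differences was 0.09 over these 39 members and 0.13 over the 3518 genes. The members were brighter than that background, with a median level of 11.35 against 10.10, and how much of the smaller spread goes with level was not tested.

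**Figure D1:**
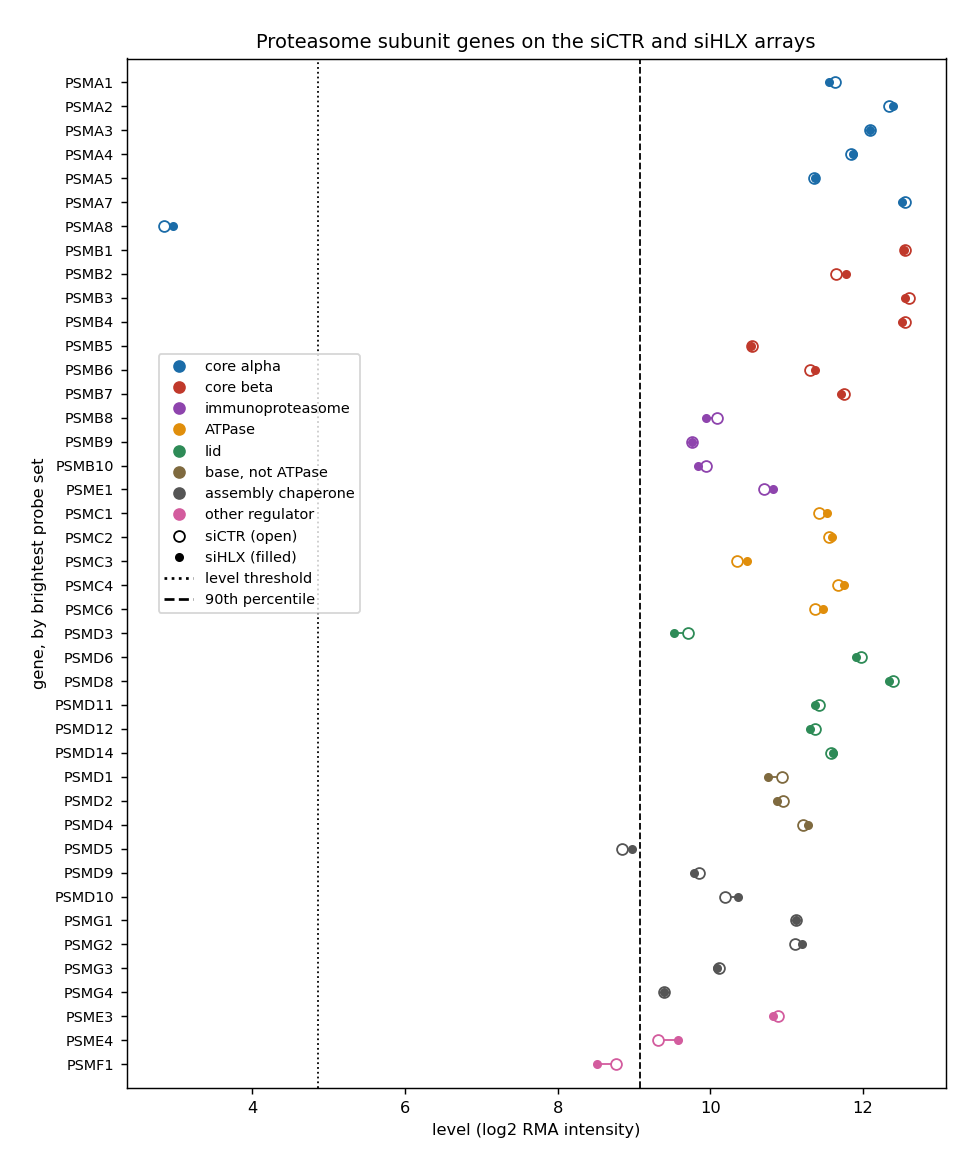
Level (x axis, log2 RMA intensity) of the brightest probe set of each of the 42 proteasome subunit genes (y axis), with open circles for the siCTR array and filled circles for the siHLX array, 1 array each; lines mark the level threshold of 4.865 and the 90th percentile of 9.08. The circles of each gene nearly coincide, the longest lines belong to PSME4 and PSMF1, and PSMA8 lies alone below the threshold.

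The alpha subunits of the core were split evenly. Their 6 members above the threshold had a median of 0 and ranged from -0.07 to 0.05, with 3 higher and 3 lower. On these brightest probe sets 0 passed 1.1-fold. Of genes above the 90th percentile, 11.8% passed it upwards and 15% downwards. PSMA2 read 12.35 with siCTR and 12.40 with siHLX, and PSMA4 read 11.84 and 11.87. PSMA1 read 11.63 and 11.56, and PSMA7 read 12.55 and 12.51. Dimmer probe sets of PSMA2 and PSMA7 gave 0.19 and -0.18, both past 1.1-fold. PSMA3, at 12.10 and 12.09, and PSMA5, at 11.36 and 11.37, were the closest pairs of readings in this ring. PSMA1 is read by 3 probe sets of like brightness, which gave -0.07, 0.01 and 0.02. The sign of a difference this small is thus not settled by the choice of probe set.

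The constitutive beta subunits also lay close to 0. Of their 7 members 5 were lower and 2 higher, with a median of -0.02 and a range from -0.05 to 0.13. Of all genes above the 90th percentile, 51.0% were lower and 45.6% higher. Of the subunits that cut proteins, PSMB5, the chymotrypsin-like one, read 10.55 with siCTR and 10.53 with siHLX. PSMB6, the caspase-like subunit, read 11.31 and 11.37. PSMB7, the trypsin-like subunit, read 11.76 and 11.71. No constitutive cutting subunit differed by more than 0.06 in either direction on its brightest probe set, although a second, dimmer probe set of PSMB7 gave -0.29. Among the structural beta subunits PSMB2 had the highest difference, 0.13, with 11.65 and 11.78. Its dimmer probe sets above the threshold disagreed, with -0.35 and 0.41. PSMB3 read 12.60 and 12.56, PSMB4 12.55 and 12.52, and PSMB1 12.55 and 12.54.

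The differences of the 4 immunoproteasome members had an SD of 0.12, and those of the 13 constitutive core genes one of 0.05. The 4 were also dimmer, with a median level of 9.955 against 11.855, and dimmer genes vary more on these arrays. How much of the wider spread goes with level was not tested. PSMB8, which replaces PSMB5, read 10.09 with siCTR and 9.95 with siHLX (difference -0.14). PSMB10, which replaces PSMB7, read 9.94 and 9.84, a difference of -0.10. PSMB9, which replaces PSMB6, read 9.76 on both arrays. PSME1, part of the cap that goes with the immunoproteasome, read 10.71 and 10.83, a difference of 0.12. The catalytic forms were thus level or lower, and the cap gene was higher, relative to the bulk of genes; with poly-A scaling all 4 lay above 0. Each immunoproteasome member was read by 1 probe set, so no technical spread can be given for these values. The median of the 4 was -0.05, and it was 0 without PSMB8, whose probe set is of the _s_at kind and can match other transcripts.

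Setting each immunoproteasome form against the subunit it replaces removes any shift common to both. Taken this way, PSMB8 stood at -0.12 relative to PSMB5, PSMB9 at -0.06 relative to PSMB6, and PSMB10 at -0.05 relative to PSMB7. All 3 pairs had the same sign on the brightest probe sets. The dimmer probe set of PSMB7 gave -0.29, and the mean of its 2 probe sets was -0.17. PSMB10, at -0.10, lies above that mean, so the sign of this pair depends on the probe set. Between the arrays, the SD of the differences of single genes was 0.11 for those brighter than 10, as PSMB8 is, and 0.22 for those between 6 and 10, as PSMB9 and PSMB10 are. Of the 6 genes for peptide handling on the HLA class I route, 1 was higher, 4 lower and 1 at 0 by brightest probe set. Of all genes above the threshold, 47.4% were higher and 50.2% lower. TAP1 and TAP2, which carry the peptides into the endoplasmic reticulum, had differences of -0.16 and -0.13, and TAPBP, which holds class I molecules to them, had 0.14. The trimming enzymes ERAP1 and ERAP2 had 0 and -0.10, and B2M, the light chain of class I, had -0.02. The mean over probe sets was 0.04 for ERAP1, 0.02 for ERAP2, 0.12 for B2M, 0.06 for TAPBP and -0.15 for TAP2. Readings of ERAP1 spanned -0.31 to 0.58, and TAP1 had 1 probe set.

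The ATPases of the base were the group in which all members read on the same side. PSMC1 read 11.43 with siCTR and 11.53 with siHLX, and PSMC6 read 11.38 and 11.48, both a difference of 0.10. PSMC3 read 10.35 and 10.48, a difference of 0.13, the highest of this group. PSMC4 read 11.67 and 11.76, and PSMC2 11.56 and 11.60. With siHLX all 5 were higher, by a median of 0.10, whereas 47.4% of all genes above the threshold and 45.6% of those above the 90th percentile were higher. Of the 5, 0 reached 1.1-fold, and all but PSMC3 lay within the SD of 0.11 of genes brighter than 10. PSMC2 was the gene of this ring with conflicting readings: its dimmer probe sets gave 0.26 and -0.41, and the mean of its 3 probe sets was -0.04. The other 4 had 1 probe set each. Those of PSMC1 and PSMC3 and the brightest of PSMC2 are of the _s_at kind, which can match other transcripts. Without such probe sets 3 ATPase genes remained, all higher, with PSMC2 then read on a dimmer probe set at 0.26. With the mean of probe sets in place of the brightest, 4 of 5 were higher.

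Lid subunits mostly read on the other side. Of 6 members 5 were lower, with a median of -0.065 and a range from -0.19 to 0.03; with poly-A scaling all 6 lay above 0. PSMD3 read 9.71 with siCTR and 9.52 with siHLX and had the lowest difference of the lid, -0.19. That value lay within the SD of 0.22 of genes between 6 and 10. The brightest probe sets of the other lid members lay within the SD of 0.11 of genes brighter than 10. PSMD6 read 11.98 and 11.91, and PSMD12 read 11.38 and 11.31, with 0.03 on its dimmer probe set. PSMD11 read 11.43 and 11.37, and its dimmer probe set gave -0.22. PSMD8 read 12.39 and 12.34. PSMD14, the enzyme that removes the ubiquitin chain, was the member above 0, with 11.58 and 11.61. Among all genes above the threshold 50.2% were lower. SEM1, a small lid subunit without a PSM symbol, read 10.30 and 10.48, a difference of 0.18, so that the lid as a whole was not one-sided.

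The base subunits that are not ATPases had a median of -0.07. PSMD1, a scaffold of the base, read 10.94 with siCTR and 10.76 with siHLX (difference -0.18), and its second probe set gave -0.02. PSMD2, the other scaffold, read 10.95 and 10.88. PSMD4, a receptor for ubiquitin chains, read 11.22 and 11.28, and all 3 of its probe sets above the threshold were higher, between 0.03 and 0.17. ADRM1, a ubiquitin receptor without a PSM symbol, had -0.12.

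On their brightest probe sets the ATPases began at 0.04 and the lid members with a PSM symbol ended at 0.03, a gap no wider than the last digit of the values. SEM1, at 0.18, lay above every ATPase, and with the mean of probe sets PSMC2, at -0.04, lay inside the range of the lid. Relative to the median of all genes, their medians stood at 0.11 and -0.055. Genes of a group are not replicates of the treatment, and the difference between the groups was not tested.

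**Figure D2:**
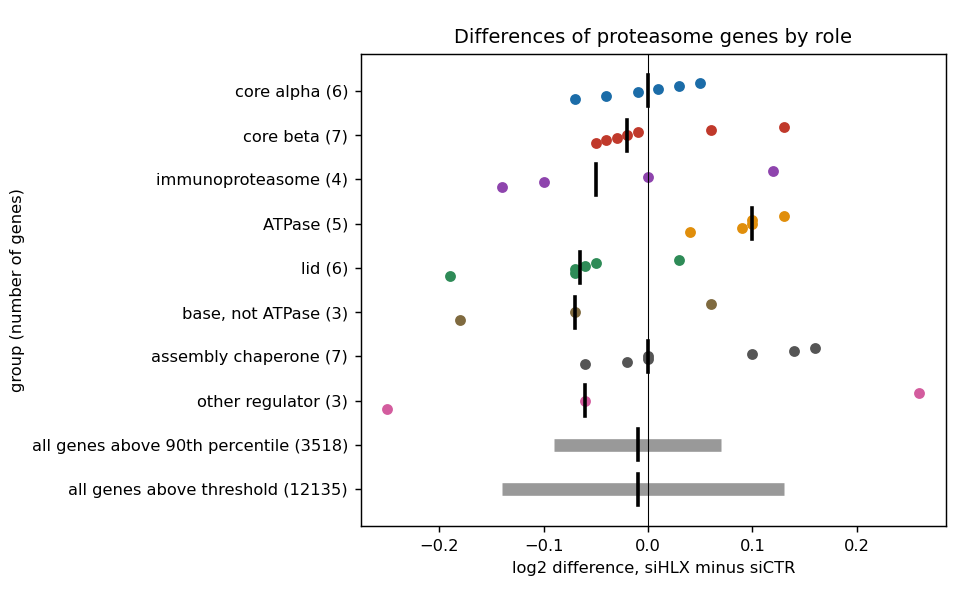
Log2 difference, siHLX minus siCTR (x axis), for proteasome genes above the level threshold by role (y axis, number of genes in parentheses); points are genes by their brightest probe set, black bars are medians, and grey bars span the quartiles of all genes, from -0.14 to 0.13 above the threshold and from -0.09 to 0.07 above the 90th percentile. The 5 ATPase genes lie right of 0 and 5 of the 6 lid genes left of it, relative to the bulk of genes; with poly-A scaling all points lie above 0.

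Assembly chaperones, which help to build the particle and then leave it, had a median of 0, or 0.09 with the mean of probe sets. Of 7 members 3 were higher, 2 lower and 2 at 0, where 47.4% of all genes above the threshold were higher and 50.2% lower. PSMD10, also known as the oncoprotein gankyrin, read 10.20 with siCTR and 10.36 with siHLX (difference 0.16), and its second probe set gave 0.02. PSMD5 read 8.84 and 8.98, a difference of 0.14. These are chaperones of the base. They were past 1.1-fold upwards, as were 24.6% of all genes above the threshold. PSMD9, another chaperone of the base, read 9.85 and 9.79, whereas its dim second probe set read 4.96 and 5.65. Of the chaperones of the alpha ring, PSMG2 had 0.10, PSMG3 -0.02, and PSMG1 and PSMG4 0, while a dim probe set of PSMG4 gave -0.47.

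The widest readings came from the remaining regulators. PSME4, an ATP-independent activator linked to the breakdown of histones, read 9.32 with siCTR and 9.58 with siHLX. Its difference of 0.26 was the highest of all members and fell just short of the 1.2-fold limit of 0.263. Its other probe sets were also higher, at 0.22 and 0.08 (mean 0.19, SD 0.09 over 3 probe sets, a technical SD). PSMF1, an inhibitor of the core in the test tube, read 8.76 and 8.51, a difference of -0.25 or 0.84 times the control level, the lowest of all members. Its other probe sets gave 0.08, -0.36 and 0.94, so that the mean of the 4 was 0.10 with an SD of 0.59. PSME3, the nuclear relative of PSME1, read 10.89 and 10.83, and its 4 probe sets lay between -0.18 and 0. The probe sets of PSME4 thus had 1 direction, whereas the reading of PSMF1 depends on the probe set.

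Repeat readings of the same gene set the scale for these values. The 42 members had 81 probe sets, of which 71 lay above the threshold. Of the 20 members with at least 2 probe sets above it, 11 showed 1 direction throughout. A reading of exactly 0 was what kept PSMB4, PSME3 and PSMG4 out of the 11. The same share over all genes was not computed. Pooled over members, the SD between probe sets was 0.27, as it was over all genes with several probe sets. The spread was widest among dim probe sets. The SD of the differences was 0.51 over the 18 probe sets with a level below 6, 0.20 over the 20 between 6 and 10, and 0.09 over the 43 above 10. Below 6 the readings spanned -1.16, on a dim probe set of PSMA3, to 0.94 on one of PSMF1, while the brightest probe sets of these genes gave -0.01 and -0.25. Above 10 the readings spanned -0.18 to 0.17.

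**Figure D3:**
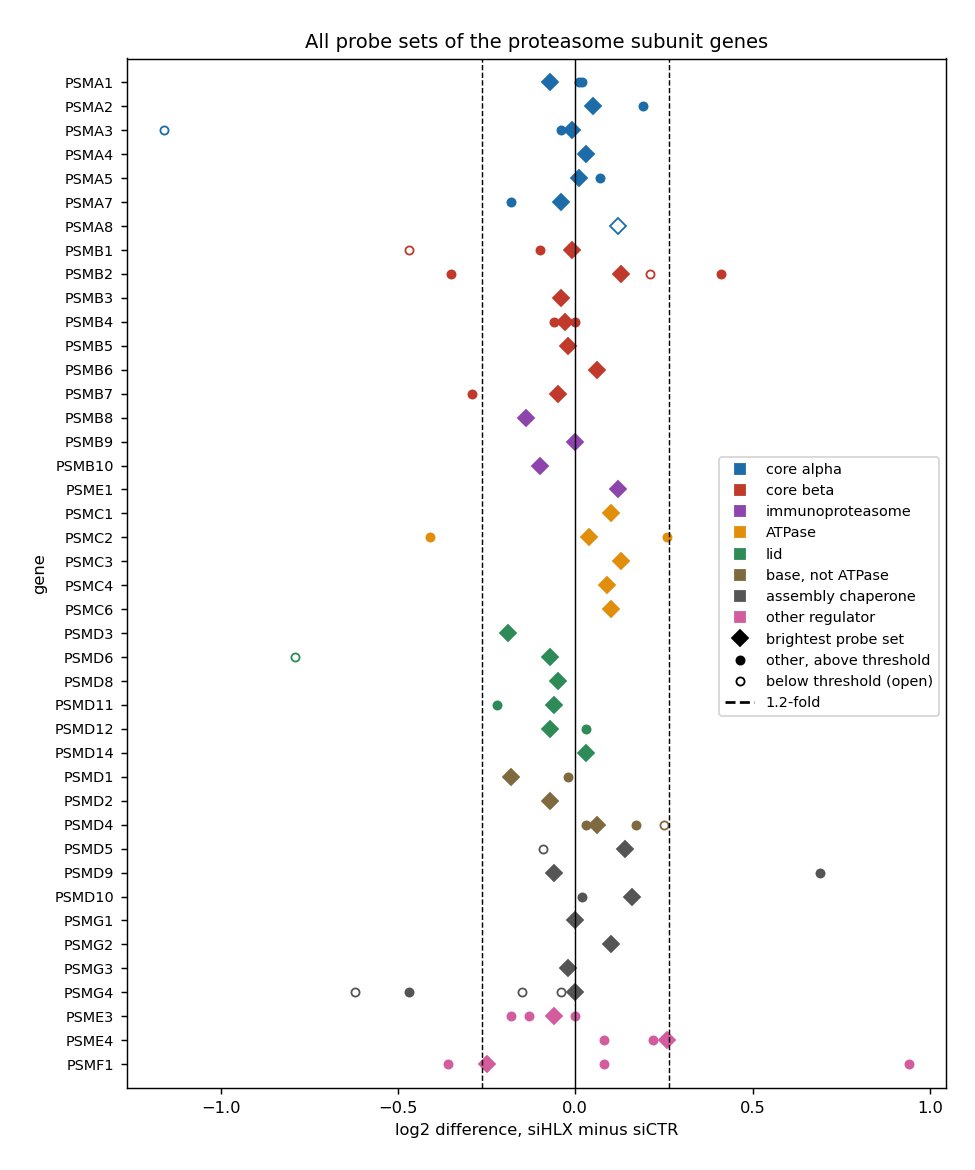
Log2 difference, siHLX minus siCTR (x axis), for all 81 probe sets of the 42 genes (y axis); diamonds are the brightest probe set of a gene, circles the others, open symbols lie below the level threshold, and dashed lines mark 1.2-fold. All diamonds lie between the dashed lines, and the circles far from 0 belong to dim probe sets such as those of PSMA3, PSMD9 and PSMF1.

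**Figure D4:**
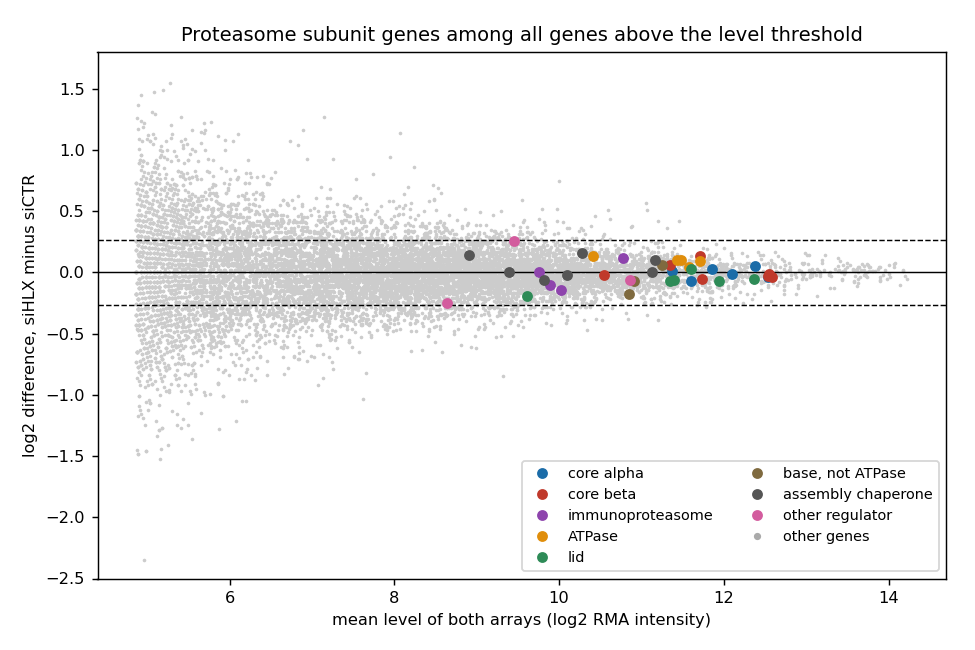
Log2 difference, siHLX minus siCTR (y axis), plotted over the level averaged across the arrays (x axis, log2 RMA intensity), 1 point per gene above the threshold; coloured points are the 41 proteasome genes by role, grey points all other genes, and dashed lines mark 1.2-fold. The proteasome genes sit at the bright end, where the spread of all genes is narrow, and none crosses the dashed lines.

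Other genes of the ubiquitin-proteasome pathway were taken from a list of 41, of which 35 had a probe set of their own and lay above the threshold. Of these 9 were higher, 22 lower and 4 at 0 on their brightest probe sets, with a median of -0.05. These counts depend on the probe set. Among the lower genes, the mean over probe sets was above 0 for POMP, PAAF1, ECPAS, FBXO7, AKIRIN2, IRF1, UBA6, ERAP2 and B2M. Among the higher genes, it was below 0 for NGLY1 and UBQLN1. Over all genes above the threshold 47.4% were higher and 50.2% lower, with a median of -0.01. The 35 were brighter, with a median level of 9.84 against 7.84 for those genes. At 1.2-fold, 12% of all genes above the threshold were higher and 12.6% lower. Among genes above the 90th percentile the shares were 2.53% and 2.81%. Of the 35, 0 were higher and 1 was lower. That gene was NLRC5, the activator of HLA class I and immunoproteasome genes, which read 5.47 with siCTR and 5.0 with siHLX on a dim probe set. NFE2L1, the factor that raises proteasome genes when the protease is blocked, had 0.14 on its brightest probe set, with a mean of 0.02 over 3 probe sets. NFE2L2 had 0.03. IRF1, an interferon-induced activator of immunoproteasome genes, had -0.14 on the brighter and 0.22 on the other probe set. The assembly factors POMP, PAAF1, ECPAS and FBXO7 read between -0.09 and -0.03, but each had another probe set at 0.11 or above. USP14, a deubiquitinase docked on the base, had 0 on its brightest probe set, and UCHL5, another one, -0.11. The 3 probe sets of UCHL5 above the threshold lay between -1.05 and -0.07, with a mean of -0.41. Those of USP14 lay between 0 and 0.26. UBE3C, a ligase bound to the proteasome, had -0.17. VCP, the segregase that extracts substrates, had 0, its partner NPLOC4 0.19 and its other partner UFD1 -0.08. UBA1, the enzyme that activates ubiquitin, had -0.23, and the ubiquitin gene UBB 0.04.

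**Figure D5:**
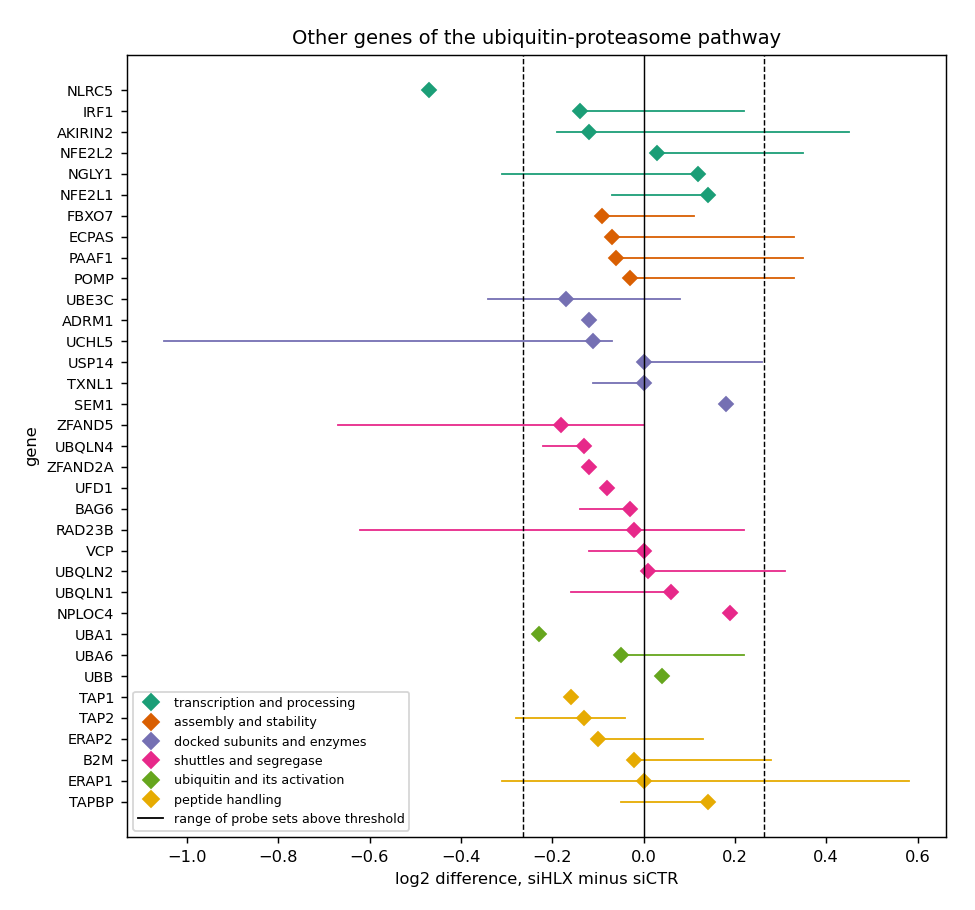
Log2 difference, siHLX minus siCTR (x axis), for 35 other genes of the pathway (y axis), coloured by class; diamonds are the brightest probe set, lines span all probe sets of the gene above the level threshold, and dashed lines mark 1.2-fold. Only the diamond of NLRC5, at -0.47, lies outside the dashed lines, and many lines cross 0.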

How the data were processed

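The data were 2 arrays of SU-DHL-1 cells, 1 with siCTR and 1 with siHLX, grouped by the treatment in the sample labels. For each probe set the deposited value was a log2 intensity with 2 decimals, which the authors had background corrected by RMA and quantile normalised. RMA, limma and affy are named in the submitters' processing notes, with versions and genome build not given in the sources used here. Quantile normalisation sets both arrays to nearly the same distribution (sorted values differed by at most 0.06), so a shift shared by most transcripts is not seen. A ratio to the sample mean, described in the methods, was not seen in the values.

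Genes were named from probe sets paired with 1 gene (41091 of 54613), with symbols checked in RefSeq (41037 found, 0 changed). The brightest probe set stood for a gene. Lists were described by counts and medians beside those of all genes. Genes named were the immunoproteasome members, PSMB5, PSMB6 and PSMB7, the extremes of each role group, members past 1.2-fold and those with conflicting probe sets; the remaining members were added to complete each group. Members, roles, lists and settings were chosen with earlier results of these data known, and promoter motifs after the values were seen. Python 3.11.15, pandas 2.3.3 and NumPy 2.4.6 were used, and the counting steps were tested on simulated data. Alternatives were median centring, lowess (fraction 0.2), poly-A scaling, the mean of probe sets, leaving out probe sets ending in _s_at or _x_at, other level thresholds and other fold limits. The number of arrays limits the precision.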

Additional observations from a re-analysis of the deposited data

How the results depend on the processing

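No paired analysis was possible because each treatment had 1 array, and for the same reason no array could be left out. Median centring and the 75th percentile threshold moved no median and no count of a role group. With no level threshold PSMA8 joined the alpha subunits, which then had 4 higher and 3 lower. With lowess the 3 members at 0 lay just above it. Scaling both arrays to equal poly-A controls, of which 23 of 24 probe sets were lower on the siHLX array, moved the median of all members to 0.28, of core alpha to 0.29, of core beta to 0.27, of ATPases to 0.39 and of chaperones to 0.29. It turned the medians of the immunoproteasome to 0.24, of the lid to 0.22, of the other base subunits to 0.22 and of the other regulators to 0.23, and gave 24 members at least 1.2-fold higher. Relative to all genes, which shifted alike, no group moved. Without _s_at or _x_at probe sets the immunoproteasome median was 0, and with the mean of probe sets the chaperone median was 0.09. The median of the other regulators also turned to 0.10 both with the mean of probe sets and when a level of 9.08 was required, which drops PSMF1. At 1.2-fold, 1 member was higher with lowess (PSME4, 0.27) and 1 with the mean of probe sets (PSMD9, 0.32). Without _s_at or _x_at probe sets 1 was higher (PSMB2, 0.41) and 2 lower (PSMF1, -0.36, and PSMG4, -0.47), all from dimmer probe sets. At 1.1-fold, 3 were higher and 4 lower. The ATPase median was 0.10 to 0.11 and the lid median -0.07 to -0.056 in all settings except poly-A scaling. Without _s_at or _x_at probe sets these medians rested on 3 ATPase and 5 lid genes. Differences of 0.1 cannot be told from array noise without replicates.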
